A study of Mus musculus with 48 samples.

Results

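Macrophages are described here through 8 genes: the 3 chains of complement C1q (C1qa, C1qb and C1qc), the growth factor receptor Csf1r, the surface receptor Adgre1, the scavenger receptors Mrc1 and Cd163, and the lysosomal protein Cd68. They were named as macrophage and C1q genes, with earlier results of these data known, out of 22180 gene symbols on the array, and each was read from its brightest probe set that carried 1 symbol. Each of the 8 had a single such probe set. All 8 lay above the array median in at least 3 of the 48 arrays and so passed the filter that left 15242 genes for testing. Cd163 was the dimmest against that filter, above the median in 16 of 48 arrays, while Mrc1 was above it in 46 and the other 6 in all 48.

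C1q is the recognition molecule of the classical complement pathway. Its A, B and C chains assemble together, bind immune complexes and dying cells, and recruit the proteases C1r and C1s, and tissue macrophages are its main source. Csf1r binds CSF1 and IL-34 and sustains macrophages in tissues. Adgre1 encodes F4/80, the classical surface marker of mouse macrophages. Mrc1 (CD206) and Cd163 take up glycoproteins and haemoglobin complexes and are typical of resident macrophages, and Cd68 encodes a glycoprotein of late endosomes and lysosomes that other phagocytes and some non-myeloid cells also carry.

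The study measured total RNA from whole tissue of the squamocolumnar junction and cardia, where oesophagus meets stomach, on 48 Affymetrix arrays in 16 groups of 3. It used a mouse model of Barrett oesophagus, in which squamous lining is replaced by columnar lining. In these mice, called pL2, a promoter active in squamous epithelium of the upper gut drives interleukin-1 beta. It asked what a high fat diet, the chemokine interleukin-8 (IL8), FXR (a nuclear receptor for bile acids) and the Notch pathway change in this disease.

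Chow-fed wild-type (WT) and pL2 mice, 12 months old, came from 2 animal facilities, MRI and Freising, and both genotypes on high fat diet (HFD), also 12 months old, came from Freising. A line labelled FXR, whose label does not say how the gene was changed, and its cross with pL2 were 12 months old, on chow and from MRI. A pL2 line with IL8 was sampled at 9 and 12 months, on chow, at MRI. Finally, 6 pL2 lines from MRI, on chow and 9 to 13 months old, carried an Lgr5 or Dclk driver with Notch1fl_fl, Notch2fl_fl or Notch2IC_LacZ and had received tamoxifen at 3 to 6 months. Lgr5 marks stem cells of the cardia and Dclk1 marks tuft cells, and neither is a macrophage marker. The control pL2 group at MRI has no driver in its label and no tamoxifen. Nothing in the labels says whether arrays of a group came from separate mice, so p-values measure the spread between these samples.

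Values are log2 array signals, and array medians lay between 4.03 and 4.27. Columnar gastric markers (list means 11.4 to 12.7) and squamous markers (6.64 to 10.3) were bright in all arrays, and muscle varied, with smooth muscle means from 6.37 to 10.9. Hepatocyte markers ranged from 4.51 to 11.3 and intestinal markers from 4.64 to 10.3, and 1 WT and 1 pL2 array from MRI were among 10 arrays with a mean above 8 on either list. In whole tissue, fewer cells of a type and less RNA per cell cannot be told apart.

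The C1q genes lie side by side on chromosome 4, C1qb next to C1qc and C1qc next to C1qa in the RefSeq gene order. RefSeq promoter entries were found for 5 of the 8 members, and the 250 bases before the annotated start are printed for 4 of them. These are C1qb and C1qc, which varied together within groups, Mrc1, which varied with the C1q mean, and Cd68. Cd68 moved against the others in pL2 against WT at MRI but with them on HFD in pL2 mice. Positions are of build GRCm38.p6, written 5′ to 3′ on the gene's strand: C1qb chr4:136886201-136886450 (minus), C1qc chr4:136892915-136893164 (minus), Mrc1 chr2:14229164-14229413 (plus) and Cd68 chr11:69666171-69666420 (minus). Capitals mark matches, on either strand, to GAGGAA (the core of PU.1-type ETS sites), TGCTGA (a MAF half-site) or TTGCNNAA (C/EBP), and GAGGAA on the opposite strand reads TTCCTC.
C1qb: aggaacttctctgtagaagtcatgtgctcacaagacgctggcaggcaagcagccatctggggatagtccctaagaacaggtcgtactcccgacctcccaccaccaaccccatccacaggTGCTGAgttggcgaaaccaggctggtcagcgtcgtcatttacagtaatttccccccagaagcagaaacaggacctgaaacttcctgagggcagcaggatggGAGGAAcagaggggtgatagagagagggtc
C1qc: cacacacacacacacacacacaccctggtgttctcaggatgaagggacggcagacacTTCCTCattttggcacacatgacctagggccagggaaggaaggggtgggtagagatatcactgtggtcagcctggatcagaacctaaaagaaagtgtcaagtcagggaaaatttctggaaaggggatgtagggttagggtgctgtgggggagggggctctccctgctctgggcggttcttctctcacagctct
Mrc1: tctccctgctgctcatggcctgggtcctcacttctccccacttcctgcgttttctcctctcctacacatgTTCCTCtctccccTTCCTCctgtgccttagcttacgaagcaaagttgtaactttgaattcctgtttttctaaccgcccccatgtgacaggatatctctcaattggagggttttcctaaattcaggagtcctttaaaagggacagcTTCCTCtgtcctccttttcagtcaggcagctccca
Cd68: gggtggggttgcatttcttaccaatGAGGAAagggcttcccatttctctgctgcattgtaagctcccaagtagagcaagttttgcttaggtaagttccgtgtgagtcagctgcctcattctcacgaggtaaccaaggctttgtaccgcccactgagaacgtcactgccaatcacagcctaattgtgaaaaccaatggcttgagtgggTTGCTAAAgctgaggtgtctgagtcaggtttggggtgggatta

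Of the 5 member windows found, the 4 printed ones held GAGGAA and that of Cd163 did not. It occurred 3 times in the Mrc1 window and once in each of the other printed ones. Of all 32851 promoter windows of the same length, 23.3% held GAGGAA. Counted from the annotated start, GAGGAA lay at -30 to -25 in C1qb, and the nearest of the copies in Mrc1 at -35 to -30. TGCTGA was found in the C1qb window (16.1% of all windows), and TTGCNNAA in that of Cd68 (9.56%). The Cd163 window held none of these letters. No 2 motif matches overlapped, and a match describes letters only.

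Across the 16 groups, 6 of the 8 genes had their highest mean in the 9-month IL8 line, and Mrc1 and Cd163 had theirs in WT at MRI. The mean of the C1q chains was 7.28 ± 0.11 (SD, n = 3) there, 6.98 ± 0.47 in pL2 on HFD and 6.83 ± 0.24 in WT at MRI. It was lowest in pL2_Lgr5_Notch2fl_fl (5.89 ± 0.20), pL2 at MRI (5.91 ± 0.28) and pL2 on chow at Freising (6.11 ± 0.17). Neighbours in this order differed little: of 15 neighbouring pairs of groups, the gap between means exceeded the larger SD in 1 for the C1q mean, in 0 for C1qa, C1qb, C1qc and Cd68, and in at most 3 for the other members.

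The span from highest to lowest group mean was 4.44-fold for C1qb, 3.47-fold for Mrc1 and 3.04-fold for Csf1r, and 2.15-fold to 2.86-fold for the other 5. The group SDs had medians of 0.21 to 0.36 by gene. The pL2_Lgr5_Notch2IC_LacZ line was the most uneven for 5 of the 8 genes, with C1qb at 6.29, 8.40 and 7.21 in its 3 arrays. Cd68 and Cd163 ordered the groups differently from the C1q chains. Cd68 was lowest in WT at MRI (6.46 ± 0.28), where Cd163 was highest (4.95 ± 0.21).

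**Figure D1:**
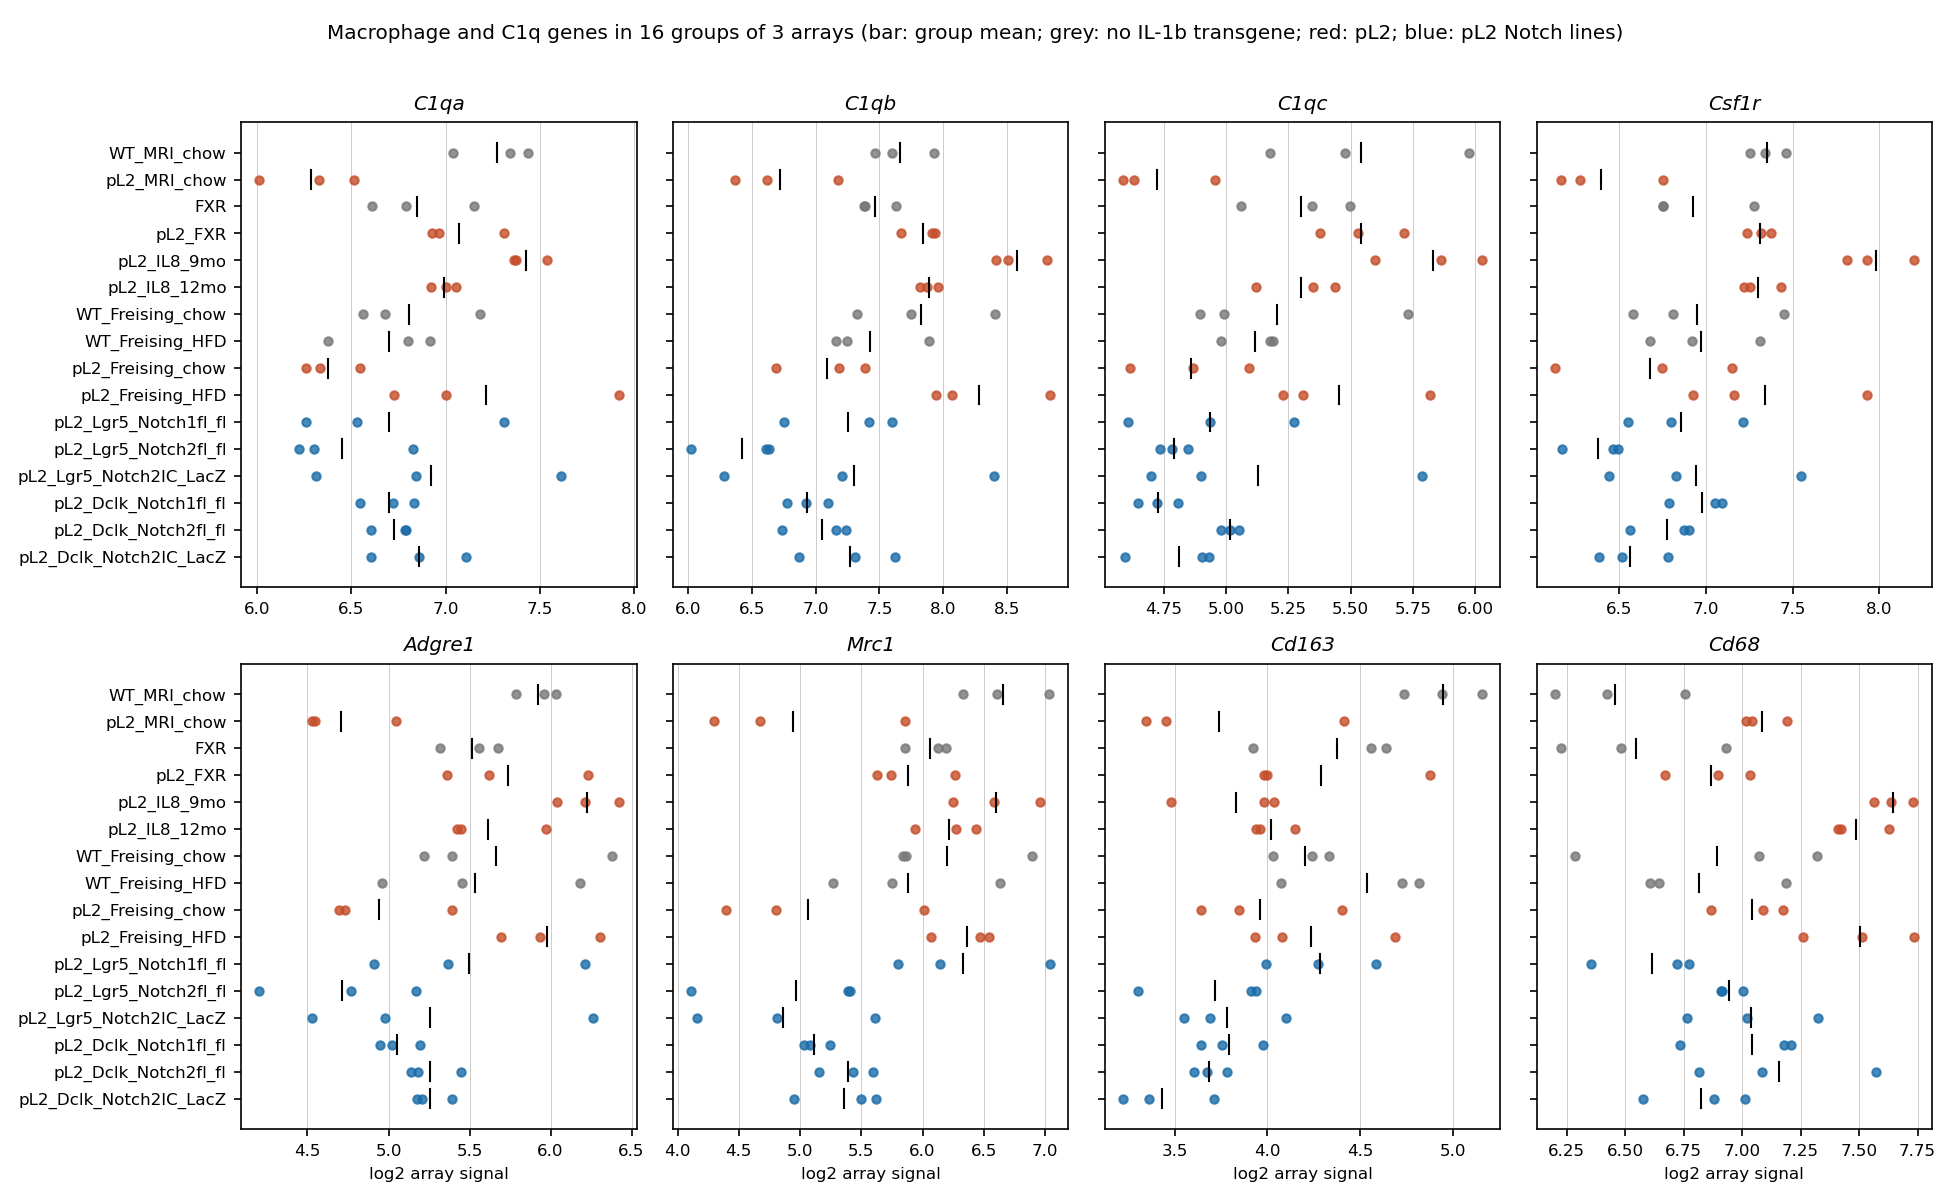
Log2 array signal of the 8 genes (panels) in the 16 groups (rows), with each array as a dot and the group mean as a bar; each panel has its own scale, and grey, red and blue mark mice without the transgene, pL2 mice and pL2 Notch lines. The 9-month IL8 line has the highest mean of C1qb (8.58), while WT at MRI is highest for Cd163 (4.95) and lowest for Cd68 (6.46).

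Whether the interleukin-1 beta transgene changes macrophage genes was asked first at MRI, as pL2 against WT on chow. C1q, Csf1r, F4/80 and the scavenger receptor genes were all lower in pL2, between 1.77-fold and 3.28-fold, and Cd68 was 1.54-fold higher. Limma called 7 of the 8 members lower, against 12.8% of all genes tested, and 1 higher, against 10.3% (adjusted p below 0.05). The median difference of the 8 was -0.97, beside 0.007 for all genes.

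C1qa read 7.04, 7.44 and 7.34 in WT arrays and 6.51, 6.33 and 6.01 in pL2 arrays. C1qb read 7.47, 7.60 and 7.93 in WT and 7.17, 6.62 and 6.37 in pL2. C1qc read 5.18, 5.98 and 5.48 in WT and 4.96, 4.58 and 4.63 in pL2. For all 3 chains every pL2 array lay below every WT array. C1qa fell by 0.99 ± 0.27 (SE; adjusted p = 0.00679), C1qb by 0.94 ± 0.33 (adjusted p = 0.0368) and C1qc by 0.82 ± 0.22 (adjusted p = 0.00743), each 3 arrays against 3 in limma's fit.

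Csf1r, through which CSF1 and IL-34 signal, read 7.46, 7.34 and 7.25 in WT and 6.75, 6.16 and 6.28 in pL2, a fall of 0.95 ± 0.26 (adjusted p = 0.00700). Adgre1 read 5.78, 5.96 and 6.03 in WT against 5.05, 4.54 and 4.53 in pL2 and fell by 1.22 ± 0.34 (adjusted p = 0.00963). Mrc1, the mannose receptor gene, moved furthest. It read 7.03, 6.33 and 6.61 in WT and 5.85, 4.67 and 4.30 in pL2, and fell by 1.72 ± 0.41 (adjusted p = 0.00277). Cd163 read 4.94, 4.74 and 5.16 in WT and 4.41, 3.45 and 3.34 in pL2, and fell by 1.21 ± 0.27 (adjusted p = 0.00142). The lower 2 of these pL2 values lay below all array medians (4.03 to 4.27). A filter stricter by 1 log2 unit left Cd163 out.

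Cd68, the lysosomal marker, went the other way: 6.20, 6.42 and 6.76 in WT and 7.02, 7.04 and 7.19 in pL2, a rise of 0.63 ± 0.22 (adjusted p = 0.0341). The groups did not overlap for any of the 8 genes, 7 lower and 1 higher, where 19.7% of all genes were so separated lower and 16.8% higher. Replicate 1 of the pL2 group was nearest to WT for all 7 genes that fell.

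Among other genes of the pathway, 3 of 11 C1q receptors and classical pathway partners were called lower and none higher. They were Cd93 (-1.23 ± 0.32), once described as a C1q receptor and carried by endothelium, the C1 inhibitor gene Serping1 (-1.48 ± 0.46) and C2 (-1.22 ± 0.39). Of 13 later complement genes only Itgam was called, at 1.18 ± 0.33 higher. It encodes a chain of complement receptor 3, which neutrophils carry as well. On the CSF1 receptor list 3 of 10 genes were lower, Csf1r itself among them, with its ligand gene Csf1 at -0.91 ± 0.29 and the transcription factor gene Mitf at -0.79 ± 0.25. Of 10 resident and scavenger macrophage genes 5 were lower and none higher, with the receptor gene Axl at -1.52 ± 0.22 (adjusted p = 2.57e-05), its ligand gene Gas6 at -0.49 ± 0.15, F13a1 at -1.12 ± 0.33 and Stab1 at -0.92 ± 0.28. Axl, Gas6 and Stab1 are also made by endothelial or stromal cells.

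Other macrophage lists held few calls. Of 13 other macrophage markers 1 was called, the endotoxin co-receptor gene Cd14, at 1.26 ± 0.45 higher (adjusted p = 0.0381), and the list's median was -0.21. Efferocytosis and Fc receptor genes had 2 of 10 called, both higher, Cd14 again and Cd300lf at 1.13 ± 0.34. Of 17 lysosomal and lipid-handling genes 3 were lower, such as the lipase gene Lpl at -1.44 ± 0.41, and of 8 monocyte recruitment genes none was called (2 were named by smallest p: Cx3cl1 at 0.81 ± 0.33 and Ccr1 at 0.69 ± 0.44). Pan leukocyte genes were all above 0 with 1 of 10 called, the signalling gene Dock2 at 1.54 ± 0.38.

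Other cell types moved in the same comparison. Smooth muscle genes (10 of 10), fibroblast genes (10 of 10), endothelial genes (8 of 10) and skeletal muscle genes (7 of 8) were called lower, and neutrophil genes higher (9 of 13). Fibroblast list means were 8.88 to 9.11 in WT and 6.83 to 8.0 in pL2 arrays, endothelial means 6.88 to 7.20 and 4.99 to 6.31, smooth muscle means 10.4 to 10.9 and 7.44 to 9.39, and neutrophil means 4.75 to 5.64 and 6.44 to 7.59. With the muscle, fibroblast and endothelial mean as a covariate, chosen after the data were seen, 0 of 8 members were called, the median was -0.19 and Mrc1 differed by -0.03. Squamous and skeletal muscle covariates also left 0 called, with a median of -0.67. A pan leukocyte covariate kept 7 lower, with a median of -1.24, and a neutrophil covariate, also added later, kept 4. The fibroblast, endothelial, smooth muscle, skeletal muscle and neutrophil means did not overlap between WT and pL2 arrays. Adjusting for them therefore cannot be told apart from removing part of the transgene difference. Macrophages carry pan leukocyte genes too, so here and below that covariate can remove part of the members' own signal.

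The calls also depended on which arrays were fitted. When limma fitted only the 6 WT and pL2 arrays of MRI, C1qc (adjusted p = 0.0596) and Cd68 (adjusted p = 0.0635) were not called. Single arrays mattered too. Without WT replicate 2, 5 members were called instead of 8, with C1qc at -0.60 (adjusted p = 0.0697). The call of C1qb was lost on leaving out any of 5 of the 6 arrays (adjusted p up to 0.156), and that of Cd68 on leaving out WT replicate 1, WT replicate 2, pL2 replicate 2 or pL2 replicate 3 (up to 0.168). When all 10 arrays high in liver or intestinal transcripts were dropped from the fit, among them 1 WT and 1 pL2 array of this comparison, C1qc was the 1 member still called, and the median was -0.96. Sex-linked transcripts differed too: the sex-linked score was on the Xist side in 3 of 3 WT and 1 of 3 pL2 arrays, and with it as a covariate 6 members stayed called and C1qb (adjusted p = 0.0630) and Cd68 (adjusted p = 0.0773) did not.

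**Figure D2:**
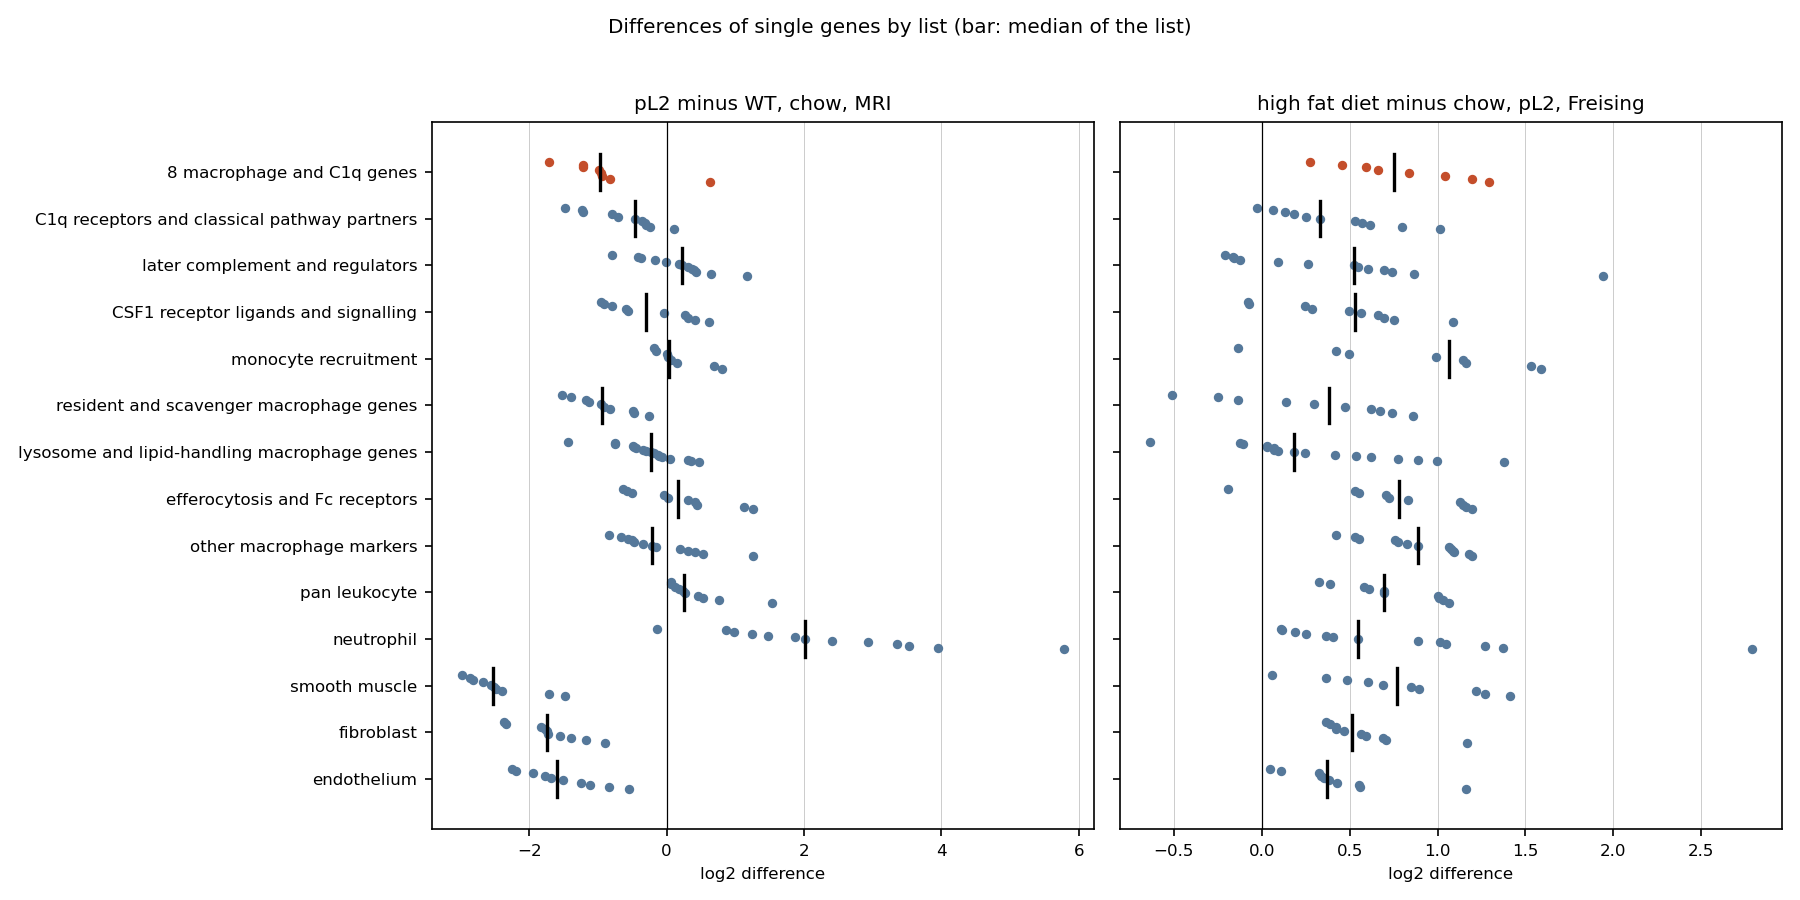
Log2 difference of each gene (dot) and the list median (bar) for the 8 members and 13 lists, at left for pL2 minus WT on chow at MRI and at right for HFD minus chow in pL2 mice. At left the members (median -0.97) lie between the muscle and stromal lists and the leukocyte lists; at right the median of every list shown lies above 0, with the other macrophage markers at 0.89.

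At Freising the same comparison on chow gave smaller differences in the same directions. The sex-linked score was on the Xist side in 0 of 3 arrays of each genotype here, against 3 of 3 WT and 1 of 3 pL2 arrays at MRI. Facility and sex-linked score therefore cannot be fully told apart when the facilities are compared or averaged. Limma called 0 of the 8 members, against 1.64% of all genes, while 3 had an unadjusted p below 0.05: Mrc1 (-1.13 ± 0.41, adjusted p = 0.156), C1qb (-0.74 ± 0.33, adjusted p = 0.260) and Adgre1 (-0.73 ± 0.34, adjusted p = 0.289). Mrc1 read 5.86, 5.84 and 6.89 in WT and 6.01, 4.80 and 4.39 in pL2, so the groups overlapped. C1qa, at 6.56, 6.68 and 7.19 in WT and 6.33, 6.54 and 6.26 in pL2, was the only member whose groups did not, where 13.6% of all genes were so separated lower. Cd68 differed by 0.15 ± 0.22. Without pL2 replicate 1, Mrc1 passed at -1.60 (adjusted p = 0.0399).

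Other lists differed between these groups too. WT mice on chow at Freising stood apart on the interferon response list, with means of 6.98 to 7.73 against at most 5.95 in any other array of the series, and this group also enters the diet comparisons in WT mice and between genotypes. The part of the interferon response in the members' values was not tested. Neutrophil means were 4.43 to 4.70 in WT and 5.73 to 5.97 in pL2 arrays, and fibroblast means 8.22 to 8.92 and 7.21 to 8.31. The members' median of -0.39 became -0.19 with the muscle, fibroblast and endothelial covariate and -0.80 with the neutrophil covariate.

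Averaged over both facilities, 7 of 8 members were called lower, against 12.9% of all genes. The largest was Mrc1 at -1.42 ± 0.29 (adjusted p = 0.000760), followed by Adgre1 at -0.97 ± 0.24 and C1qb at -0.84 ± 0.24, and the smallest of the 7 was C1qc at -0.58 ± 0.16. Cd68 was 0.39 ± 0.15 higher and did not pass (adjusted p = 0.0660), though it passed without WT replicate 3 of either facility. Csf1r (-0.61 ± 0.18) lost its call without pL2 replicate 3 or WT replicate 3 of Freising (adjusted p = 0.0728 and 0.0629). The difference between facilities, tested directly, passed for 0 of 8 members (1.76% of all genes); its smallest p belonged to Cd163, at 0.97 ± 0.38 (adjusted p = 0.158), which passed without pL2 replicate 1 of MRI (adjusted p = 0.0314). Both the muscle and stromal covariate and the squamous and skeletal muscle covariates left 0 of 8 called in the average as well.

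On HFD the transgene difference lay on the other side of 0 for 6 of the 7 genes that were lower on chow. C1qb differed by 0.85 ± 0.33 (adjusted p = 0.199), C1qa by 0.52 ± 0.27 and Mrc1 by 0.48 ± 0.41, while Cd163 stayed below 0 at -0.31 ± 0.27. Limma called 0 of 8 members (1.16% of all genes), and 2 had an unadjusted p below 0.05. Cd68 came nearest at 0.69 ± 0.22 (adjusted p = 0.105), and passed without pL2 HFD replicate 1 (0.81, adjusted p = 0.0424). For C1qb, C1qc and Cd68 all 3 pL2 arrays lay above all 3 WT arrays, where 11.4% of genes did. Neutrophil means were 5.76 to 7.64 in pL2 and 4.44 to 4.69 in WT arrays, and pan leukocyte means 6.45 to 7.82 and 6.02 to 6.21. The direction depended on whether these lists were used as covariates. With the pan leukocyte covariate the median of 0.46 became -0.01, and C1qc, Csf1r, Adgre1 and Mrc1 joined Cd163 below 0. With the neutrophil covariate it became 0.03, and C1qa, C1qc and Csf1r lay below 0. Both lists were higher in all pL2 arrays, and macrophages carry pan leukocyte genes too. Adjusting for them can therefore also remove part of the members' own difference.

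**Figure D3:**
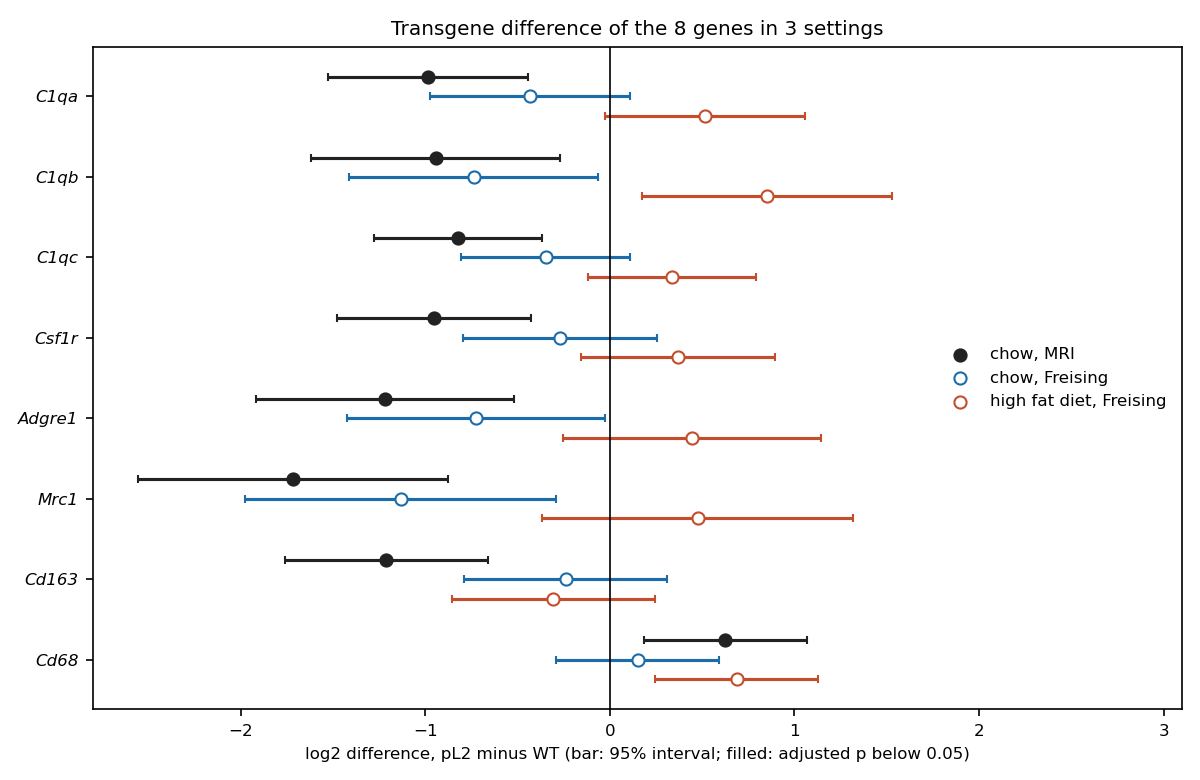
Log2 difference of pL2 minus WT mice (x axis) for the 8 genes, with 95% intervals from limma's fit and filled symbols where the adjusted p was below 0.05, for chow at MRI, chow at Freising and HFD at Freising. All 8 MRI differences are called, with 7 below 0 and Cd68 above, and none of the Freising differences is.

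Diet was compared first within pL2 mice. The means of all 8 members lay higher on HFD than on chow, with a median of 0.75 beside 0.02 for all genes. None passed the adjustment, in a comparison where limma called 0% of all genes, 872 of which had an unadjusted p below 0.05. Among the members 7 of 8 had an unadjusted p below 0.05, all but Cd163, where 5.72% of all genes did. Most members varied together within groups, so here and elsewhere such counts are not of 8 separate results. The members' adjusted p-values ran from 0.553 to 0.987.

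C1qb read 7.39, 7.18 and 6.69 on chow and 8.07, 8.84 and 7.94 on HFD, a difference of 1.19 ± 0.33 (2.29-fold; 95% interval 0.52 to 1.87; adjusted p = 0.553). C1qa read 6.33, 6.54 and 6.26 on chow and 6.73, 7.92 and 7.0 on HFD (0.84 ± 0.27). C1qc read 5.09, 4.61 and 4.87 on chow and 5.31, 5.82 and 5.23 on HFD (0.59 ± 0.22). For each chain all HFD arrays lay above all chow arrays. The same held for Cd68, Adgre1 and Mrc1, which makes 6 of 8 members, where 6.73% of all genes were so separated.

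Adgre1 read 5.39, 4.73 and 4.69 on chow and 5.94, 6.30 and 5.70 on HFD, a difference of 1.04 ± 0.34. Mrc1 differed most in size, at 1.29 ± 0.41 (2.45-fold), from 6.01, 4.80 and 4.39 to 6.54, 6.47 and 6.07. Its spread on chow was also the widest of the 16 groups for this gene, with an SD of 0.84. Csf1r differed by 0.66 ± 0.26 with overlapping groups, Cd68 by 0.46 ± 0.22, and Cd163 by 0.27 ± 0.27, the last with an interval of -0.28 to 0.82.

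HFD replicate 2 of the pL2 group was the highest of its group for 6 of the 8 genes, and its neutrophil mean of 7.64 and pan leukocyte mean of 7.82 were also the highest of the 12 Freising arrays. The other 2 arrays of that group had neutrophil means of 5.76 and 6.12. Without that array all 8 differences stayed above 0, between 0.34 and 1.24, and the median was 0.45. C1qa then differed by 0.49 and C1qb by 0.92. With array quality weights, by contrast, 2 members passed, C1qb at 1.06 (adjusted p = 0.0234) and Mrc1 at 1.32 (adjusted p = 0.0279).

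Related genes lay on the same side. All 13 other macrophage markers (median 0.89), all 10 pan leukocyte genes (0.70) and 9 of 10 efferocytosis and Fc receptor genes (0.78) were above 0, and none was called. The smallest p-values on these lists belonged to Fcer1g, the signalling chain of Fc receptors (1.20 ± 0.31), Ms4a7 (1.18 ± 0.36), Fcgr2b, the inhibitory Fc receptor gene (1.15 ± 0.34), and Tyrobp, an adaptor of myeloid receptors (1.09 ± 0.35). Spi1, which encodes PU.1, differed by 0.70 ± 0.24 (adjusted p = 0.681). Monocyte recruitment genes had a median of 1.07, with the chemokine genes Ccl2 at 1.59 ± 0.58, Ccl7 at 1.53 ± 0.50 and Ccl8 at 1.16 ± 0.38, and the monocyte receptor gene Ccr2 at 0.99 ± 0.34. Ctsk, the cathepsin K gene, had the smallest p of these lists at 1.38 ± 0.30 (adjusted p = 0.368).

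Stromal genes lay above 0 as well, all 10 smooth muscle genes (median 0.77), all 10 fibroblast genes (0.52) and all 10 endothelial genes (0.37). Smooth muscle means were 7.34 to 10.5 on chow and 9.21 to 9.47 on HFD in pL2 mice. With the muscle, fibroblast and endothelial covariate the members' median was 0.63, with Cd163 at -0.07, and with the neutrophil covariate it was 0.55. With the pan leukocyte covariate, whose genes macrophages carry too, it was 0.37.

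In WT mice the diet difference was near 0, with a median of -0.10 and a range from -0.40 (C1qb) to 0.34 (Cd163). No member was called (0.164% of all genes) and none had an unadjusted p below 0.05. C1qb read 7.32, 7.75 and 8.40 on chow and 7.16, 7.24 and 7.89 on HFD, and for each of the 8 genes the groups overlapped, where 7.14% of all genes were separated with HFD higher and 8.67% with HFD lower.

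The difference between the diet effects in pL2 and WT mice was tested directly. It was above 0 for 7 of 8 members, with a median of 0.82 beside 0.02 for all genes, and passed for none (0.0197% of all genes called). An unadjusted p below 0.05 was reached by 5 members, and by 5.81% of all genes. Mrc1 gave 1.61 ± 0.59 (adjusted p = 0.727), C1qb 1.59 ± 0.47 (adjusted p = 0.487), Adgre1 1.17 ± 0.49 and C1qa 0.95 ± 0.38, and Cd163 gave -0.07 ± 0.38. The 95% interval of C1qb ran from 0.64 to 2.55. With array quality weights C1qb, Adgre1 and Mrc1 passed (adjusted p = 0.00389 to 0.0473). Without pL2 HFD replicate 2 the median was 0.55, and without WT chow replicate 3, the highest WT array for C1qb, it was 0.59. With the pan leukocyte covariate it was 0.45.

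**Figure D4:**
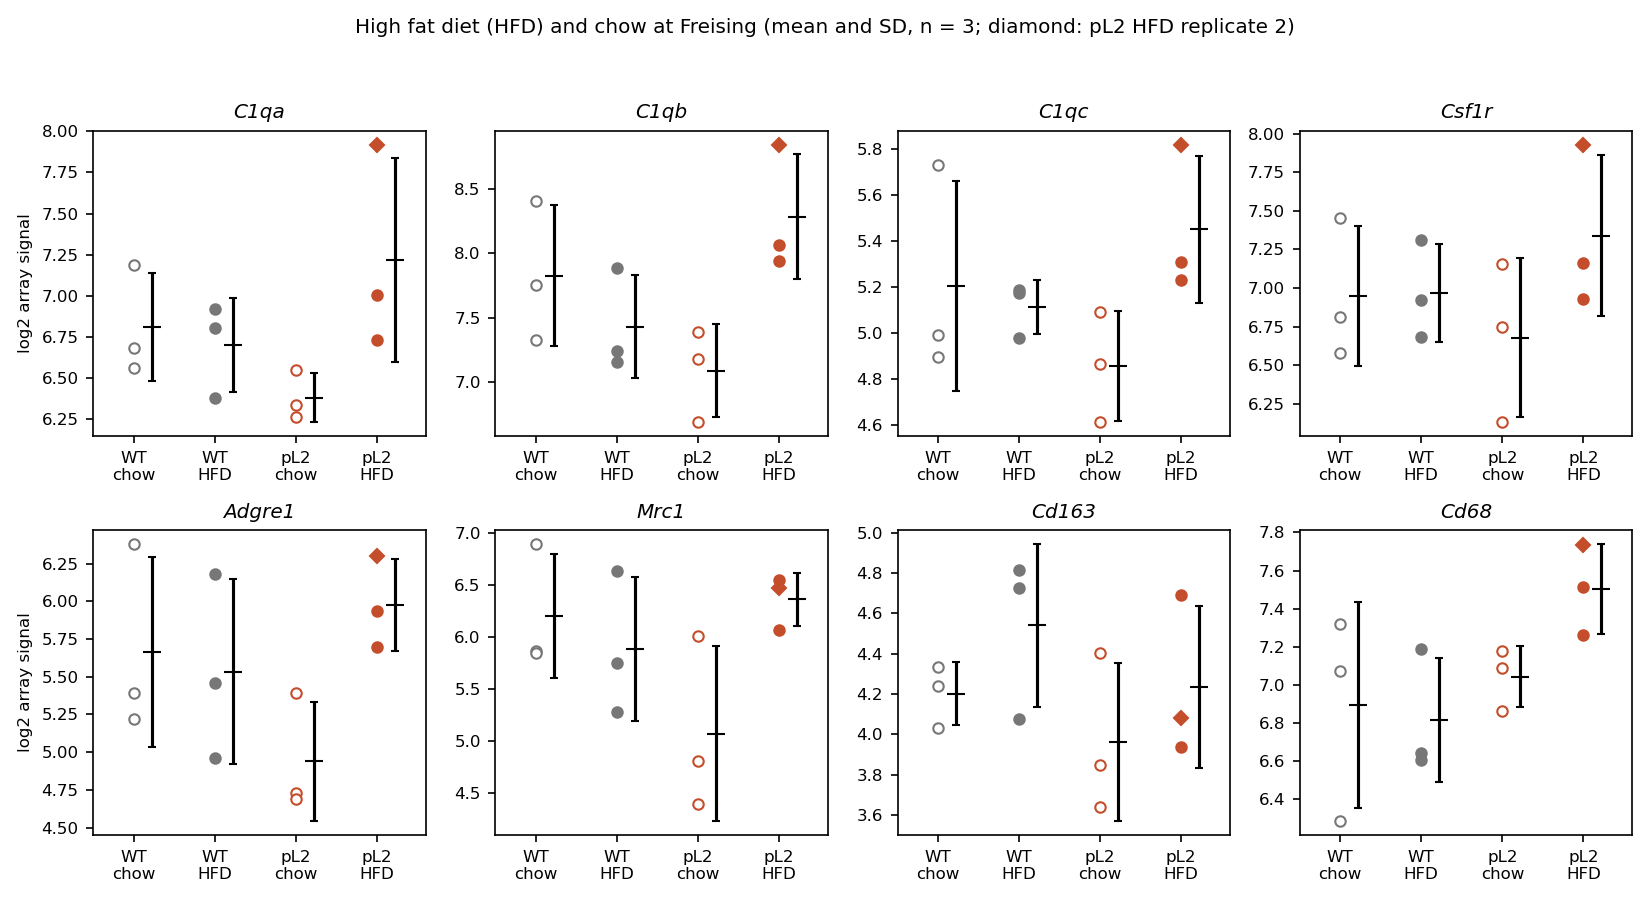
Log2 array signal of the 8 genes (panels) in WT and pL2 mice on chow (open) and HFD (filled) at Freising; dots are arrays, and the bar beside them is the mean with its SD (n = 3). In pL2 mice the HFD arrays lie above the chow arrays for 6 genes, with C1qb at 7.94 to 8.84 against 6.69 to 7.39, and replicate 2 is drawn as a diamond.

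Adding IL8 to the transgene was examined at 12 months against the pL2 group of MRI, which is also the only reference for pL2_FXR and the 6 Notch lines. The 8 comparisons therefore share 3 control arrays, and those arrays had the lowest or next to lowest means of C1qa, C1qb, C1qc, Csf1r, Adgre1 and Mrc1. The IL8 and Notch groups also lie in another series of sample titles than this reference, which cannot be told apart from genotype. In the IL8 line all 8 members were above the reference (median 0.81), and limma called 0 of 8 (1.82% of all genes), with 6 at an unadjusted p below 0.05.

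Csf1r came nearest, at 7.26, 7.44 and 7.22 against 6.75, 6.16 and 6.28 (0.91 ± 0.26, adjusted p = 0.0570), with C1qb at 7.96, 7.87 and 7.82 against 7.17, 6.62 and 6.37 (1.16 ± 0.33, adjusted p = 0.0572). Mrc1 differed by 1.28 ± 0.41 (adjusted p = 0.0936). For 7 of 8 genes, all but Cd163, the groups did not overlap, where 14.1% of genes were so separated. Without replicate 1 of the reference, C1qb, Csf1r and Mrc1 passed (adjusted p = 0.0186 to 0.0251). With array quality weights all members but Cd163 did. Leaving out the 10 arrays with a hepatocyte or intestinal mean above 8 went the other way. These include IL8 replicate 1 and reference replicate 3. No member then passed, with a smallest adjusted p of 0.27 and a median of 0.75. Endothelial genes were called higher in this comparison (9 of 10), with means of 6.85 to 7.14 in the IL8 line and 4.99 to 6.31 in the reference. With the muscle, fibroblast and endothelial covariate the members' median was 0.48 and none was called.

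Within the IL8 line the members were higher at 9 than at 12 months, except Cd163. Csf1r read 7.93, 8.20 and 7.82 at 9 months and 7.26, 7.44 and 7.22 at 12 months, a difference of -0.68 ± 0.26 (adjusted p = 0.459). C1qb differed by -0.69 ± 0.33 and C1qc by -0.53 ± 0.22. Limma called 0 of 8 members in a comparison where it called 0% of all genes, and 3 members had an unadjusted p below 0.05. For C1qa, C1qb, C1qc, Csf1r and Adgre1 all 12-month arrays lay below all 9-month arrays (9.1% of all genes). Pan leukocyte means were 7.37 to 7.61 at 9 months and 6.45 to 7.02 at 12 months, and neutrophil means 7.39 to 7.94 and 6.44 to 6.97. The members' median of -0.48 became -0.05 with the pan leukocyte covariate, whose genes macrophages carry too. The sex-linked score was on the Xist side in 3 of 3 arrays at 9 months and 1 of 3 at 12 months, and its part in this difference was tested only as a covariate, with 0 members called.

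In the FXR line without the transgene, 7 of 8 members were below WT and none was called (2.12% of all genes). Only Cd163 had an unadjusted p below 0.05, at -0.57 ± 0.27 (adjusted p = 0.294), and Adgre1, Mrc1 and Cd163 had groups that did not overlap (11.2% of genes lower). The tissue make-up differed between these groups, with squamous means of 6.64 to 7.94 in FXR and 8.82 to 9.84 in WT arrays and skeletal muscle means of 4.09 to 4.69 and 5.88 to 6.47. The members' median of -0.42 was -0.49 with both of these as covariates and -0.16 with the neutrophil covariate.

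On the transgene the cross lay above the pL2 reference for 7 of 8 members. Limma called 0 of 8 (0.0853% of all genes), with those 7 at an unadjusted p below 0.05, where 7.32% of all genes were.

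C1qc read 5.71, 5.38 and 5.53 in pL2_FXR and 4.96, 4.58 and 4.63 in the reference (0.82 ± 0.22, adjusted p = 0.196). Csf1r read 7.24, 7.38 and 7.32 against 6.75, 6.16 and 6.28 (0.91 ± 0.26, adjusted p = 0.224). For the C1q chains, Csf1r and Adgre1 the groups did not overlap, where 5.54% of genes were so separated. Cd68 again differed from the rest, at -0.22 ± 0.22. C1qc and Csf1r passed without replicate 1 of the reference (adjusted p = 0.0485 and 0.0426). All members but Cd68 passed with array quality weights, which also held for the difference of differences that follows. With the arrays of hepatocyte or intestinal mean above 8 left out, no member passed. The smallest adjusted p was then 0.82 and the median 0.76. The sex-linked score was on the Xist side in 3 of 3 pL2_FXR and 1 of 3 reference arrays. All 10 smooth muscle, all 10 endothelial and all 10 fibroblast genes were above 0 here too (medians 1.31, 1.23 and 1.10), and with their covariate the members' median was 0.50.

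Whether the FXR line bore on the transgene difference was tested as a difference of differences. It was above 0 for 7 of 8 members (median 1.26), and limma called 0 of 8 (0.138% of all genes), with 7 at an unadjusted p below 0.05, where 14% of all genes were. Csf1r gave 1.34 ± 0.37 (adjusted p = 0.0966) and C1qc 1.06 ± 0.32 (adjusted p = 0.123). Without replicate 1 of the pL2 reference, Csf1r and Cd163 passed (adjusted p = 0.0352 and 0.0361). With the muscle, fibroblast and endothelial covariate the median was 0.67. With the arrays of hepatocyte or intestinal mean above 8 left out it was 1.17, and no member passed. Within the FXR background, pL2_FXR against FXR, no member was called (10.1% of all genes) and none had an unadjusted p below 0.05, and the interval of C1qa ran from -0.32 to 0.76. C1qb alone had groups that did not overlap (13.9% of genes higher). The median of 0.23 turned to -0.24 with the pan leukocyte covariate, -0.28 with the neutrophil covariate and 0.59 with the squamous and skeletal muscle covariates.

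None of the 6 Notch lines had a member called against the pL2 reference. The share of all genes called was 0.144% in pL2_Lgr5_Notch1fl_fl, 0.0525% in pL2_Lgr5_Notch2fl_fl, 0.138% in pL2_Lgr5_Notch2IC_LacZ, 0% in pL2_Dclk_Notch1fl_fl, 0.256% in pL2_Dclk_Notch2fl_fl and 0.0197% in pL2_Dclk_Notch2IC_LacZ. An unadjusted p below 0.05 was reached by 3, 0, 2, 1, 0 and 1 members in the same order. Mrc1 in pL2_Lgr5_Notch1fl_fl was the largest difference, 6.14, 7.04 and 5.80 against 5.85, 4.67 and 4.30 (1.39 ± 0.41, adjusted p = 0.137), with overlapping groups. It passed without replicate 1 of the reference (adjusted p = 0.0377) and without replicate 3 of its own group (adjusted p = 0.0405). Cd68 in the same line differed by -0.47 ± 0.22 (adjusted p = 0.316), and its groups did not overlap, where 8.72% of genes were so separated lower. The median of the 8 members was highest in that line (0.50) and in pL2_Lgr5_Notch2IC_LacZ (0.47), and -0.007 in pL2_Lgr5_Notch2fl_fl. In pL2_Lgr5_Notch1fl_fl, 2 of 3 arrays were high in liver or intestinal transcripts (hepatocyte mean 11.3 in replicate 2, intestinal mean 9.62 in replicate 3). Dropping all such arrays left only replicate 1 of this line and also took replicate 3 from the reference. The median was then -0.04. In pL2_Lgr5_Notch2IC_LacZ it was then 0.46.

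Cd68 arrays also lay below all reference arrays in pL2_Lgr5_Notch2fl_fl (7.27% of genes lower) and pL2_Dclk_Notch2IC_LacZ (5.6%). In the Dclk lines C1qa lay above the reference in all arrays of all 3. It was joined by Csf1r in pL2_Dclk_Notch1fl_fl (8.04% of genes higher), by C1qc and Adgre1 in pL2_Dclk_Notch2fl_fl (11%) and by Adgre1 in pL2_Dclk_Notch2IC_LacZ (6.81%). C1qa differed by 0.41 ± 0.27, 0.44 ± 0.27 and 0.57 ± 0.27 in that order. In pL2_Dclk_Notch2fl_fl array quality weights raised the calls from 0 to 5.

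Activated against floxed Notch2, a comparison that does not use the shared reference, gave 0 calls with either driver, where 0.0722% of all genes were called for Lgr5 and 0.0328% for Dclk. For Lgr5, 2 members had an unadjusted p below 0.05, C1qb at 0.87 ± 0.33 (adjusted p = 0.589) and Csf1r at 0.56 ± 0.26 (adjusted p = 0.695). For Dclk none had, with C1qb at 0.22 ± 0.33, and C1qc was the member whose activated arrays all lay below the floxed ones (5.84% of genes).

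How the members varied together was examined within groups, as deviations of the 48 arrays from their group means, with 8 relations tested by permuting arrays within groups (two-sided, 100000 permutations). The C1q chains varied together. Pearson's r was 0.73 for C1qa with C1qb (permutation p = 0.00027, adjusted 0.000432; Spearman's rho 0.64, permutation p = 0.00033), 0.68 for C1qa with C1qc (permutation p = 0.00078, adjusted 0.00104; rho 0.54, permutation p = 0.00286) and 0.73 for C1qb with C1qc (permutation p = 0.00013, adjusted 0.00026; rho 0.64, permutation p = 0.0002). Without the 2 arrays farthest from the median they were 0.65, 0.58 and 0.62. All 3 lay between 0.67 and 0.74 within MRI and within Freising.

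The mean of the chains varied with Csf1r at r = 0.82 (permutation p = 3e-05, adjusted 0.00012; rho 0.75, permutation p = 5e-05) and with Adgre1 at r = 0.82 (permutation p = 2e-05, adjusted 0.00012; rho 0.74, permutation p = 3e-05). For Mrc1 it was r = 0.66 (permutation p = 0.00011, adjusted 0.00026; rho 0.65, permutation p = 0.00018). Cd163 followed less closely, at r = 0.35 (permutation p = 0.0344, adjusted 0.0393; rho 0.45, permutation p = 0.0102). Without the 2 farthest arrays these were 0.77, 0.75, 0.61 and 0.42. Within MRI (36 arrays) and Freising (12 arrays) they were 0.80 and 0.88 for Csf1r, 0.85 and 0.74 for Adgre1, 0.67 and 0.65 for Mrc1, and 0.39 and 0.27 for Cd163.

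Cd68 did not pass, at r = 0.17 (permutation p = 0.424, adjusted 0.424; rho 0.18, permutation p = 0.329). Its r was -0.12 within MRI and 0.68 within Freising, and 0.42 without the 2 farthest arrays, so no single value describes it.

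**Figure D5:**
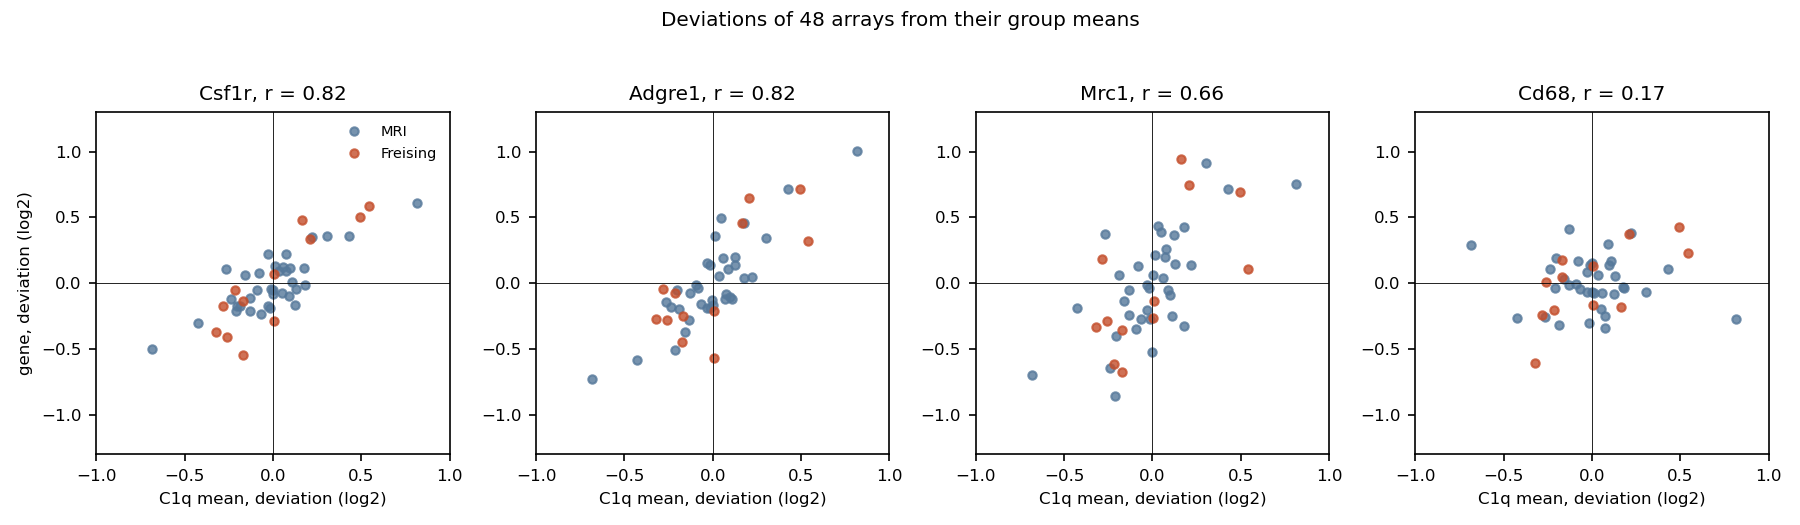
Deviation of each of 48 arrays from its group mean (log2) for the C1q mean (x axis) and 4 other genes (y axis), coloured by facility. Csf1r, Adgre1 and Mrc1 follow the C1q mean (r = 0.82, 0.82 and 0.66). Cd68 does not over all 48 arrays (r = 0.17), though its r is 0.68 within Freising.

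Other named genes, 14188 in all, were ranked by their r with the C1q mean. The members were left out of this ranking, and over the 48 arrays Adgre1 reached 0.91 and Csf1r 0.90. Over these arrays the closest other genes were Pld4 (r = 0.92), Ly86 (0.86), Mpeg1 (0.86) and the complement C3a receptor gene C3ar1 (0.84). Next came the high-affinity IgG receptor gene Fcgr1 (0.81), Spon1 (0.81), Ms4a7 (0.80), Ifnar2 (0.80), Slc11a1 (0.79) and Pla2g7 (0.79). The median r of all genes was 0.05. Over deviations from group means the list began with Ly86 (0.84), Pld4 (0.83), Ctss (0.77), the class II genes H2-Ab1 (0.75) and H2-Aa (0.72), and Fcgr2b (0.75), and was completed by Igsf6 (0.74), C3ar1 (0.74), Gatm (0.73) and Clec12a (0.72). Pld4, Ly86 and C3ar1 were on both. These are descriptions over arrays that share groups and tissue make-up.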

How the data were processed

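The deposited values are log2 signals per probe set, made by the authors with RMA in Affymetrix Expression Console, per the submitters' processing notes; its version and the genome build of the probe sets are not given in the sources used here. Of 34390 probe sets, 23521 with 1 gene symbol were used, and the brightest per symbol gave 22180 genes. The test covered 15242 genes, those that exceeded their array's median on 3 or more arrays. Limma 3.58.1 (R 4.3.3) fitted the 16 group means jointly, which left 32 residual degrees of freedom. The 22 comparisons used two-sided tests, Benjamini-Hochberg adjustment over all genes and a threshold of 0.05. Errors on differences are standard errors from that model. Groups of 3 arrays limit the precision: in simulated data with 15242 genes, 59% of genes changed by 1 (log2) were recovered for HFD in pL2 mice and 92% of those changed by 2, and for the difference between diet effects 35% and 76%. Genes were simulated independently, with 100 changed at each size. These shares need not hold for the correlated genes measured here.

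The members, the 26 gene lists (12 genes stand on more than 1) and the tests were chosen with earlier results of these data known. From each list up to 4 genes with the smallest adjusted p were named, called ones first, and examples are given. Alternatives were filters, all probe sets, the compared groups alone, array quality weights, robust moderation, cyclic loess, covariates, dropped arrays and each array left out. Replicate numbers follow accession order. Promoters are RefSeq's, and all 1526 overlapping entries on opposite strands were reverse complements.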

Additional observations from a re-analysis of the deposited data

How the results depend on the processing

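No paired analysis was possible because the labels give no pairing and replicate numbers only follow accession order. With each array left out in turn, the members called ranged from 5 to 8 for pL2 against WT at MRI and from 6 to 8 for the average of both facilities. The range was 0 to 1 for the transgene on HFD, the transgene on Freising chow, the facility difference and pL2_Lgr5_Notch1fl_fl, 0 to 3 for the 12-month IL8 line, and 0 to 2 for pL2_FXR against pL2 and for the FXR difference of differences. In the other comparisons it was 0 throughout.

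Squamous and skeletal muscle covariates left 0 of the 8 calls at MRI and 0 of the 7 in the average. The muscle, fibroblast and endothelium covariate, chosen after the data were seen, also left 0 in both, and reversed C1qb at MRI (0.10) and Cd163 in the average (0.0715). At MRI this covariate cannot be told apart from genotype. The neutrophil covariate, also added later, left 4 and 3. Dropping arrays high in liver or intestinal transcripts left 1 at MRI. Fitting the compared groups alone lost the calls of C1qc and Cd68 at MRI. For the 12-month IL8 line, with 0 called, the stricter filter, the pan leukocyte covariate and the neutrophil covariate gave 2 each, and the squamous and skeletal muscle covariates 3.

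Array quality weights, whose estimation stopped before reaching its tolerance, raised more calls than other settings. They gave 2 for HFD in pL2 mice (C1qb, adjusted p = 0.0234, and Mrc1, adjusted p = 0.0279, which were 0.0234 to 0.999 and 0.0279 to 0.999 over all settings other than dropped arrays), 3 for the difference between diet effects, 2 for the transgene on HFD and 3, all lower, for the transgene on Freising chow. They gave 1 for the facility difference, 7 each for the 12-month IL8 line, pL2_FXR against pL2 and the FXR difference of differences, 1 each for pL2_Lgr5_Notch1fl_fl and pL2_Dclk_Notch1fl_fl, 5 for pL2_Dclk_Notch2fl_fl and 2 for pL2_Dclk_Notch2IC_LacZ.

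No filter, all probe sets of a gene, trended robust moderation, cyclic loess and a covariate for a suffix on sample titles kept every count within 1.5 times. The first 3 of these cannot change a member's difference, only its p-values. At MRI 3 of 3 WT and 3 of 3 pL2 arrays carried the suffix, so its covariate could not change that difference either. On Freising chow 0 of 3 WT and 3 of 3 pL2 arrays carried it, and on HFD 0 of 3 and 2 of 3. The pL2 HFD array without the suffix was replicate 2. With the suffix covariate the median for HFD in pL2 mice was 0.74. On Freising chow the suffix cannot be told apart from genotype. Among single members' differences under settings other than one array left out, 2232 kept their direction and side of the threshold, 51 gained a call and 49 lost one. Another 108, not called in the reported fit, changed sign, as did the 2 called differences named above. With one array left out, 73 uncalled differences changed sign. Each member has 1 probe set, so no second probe set checks it.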
